A study of Mus musculus with 36 samples.

Results

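CHD4 sites kept from ESCs to NPCs are places in the mouse genome where a CHD4 peak was called in both ESC libraries and again in neural progenitor cells (NPCs). They were selected on the CHD4 peak calls themselves: a peak of ESC CHD4 replicate 1 is kept if it overlaps a peak of ESC CHD4 replicate 2 and a peak of the NPC CHD4 list by at least 1 bp. The rule found 1080 kept sites among the 11712 peaks of ESC replicate 1. Of these 11712 peaks, 8246 were shared by both ESC replicates, and 7166 of the 8246 had no NPC CHD4 peak and are called ESC-only sites below. The 20234 NPC peaks include 1096 on a kept site and 17070 with no peak in either ESC list, which are called NPC-only peaks. A further 2068 NPC peaks overlap an ESC CHD4 peak but lie on no kept site, and they belong to neither class.

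The series has 36 ChIP-seq samples, of which 9 peak lists were analysed here. MBD3 and CHD4 were precipitated from wild-type R1 ESCs in 2 replicates each, and from NPCs differentiated from R1 ESCs in vitro and kept in NPC medium in 1 library each. The same ESCs gave 2 SIN3A lists, 1 of them with spike-in chromatin, and an R1 ESC line labelled as carrying a ZFP296 BAC gave 1 list with a GFP antibody, although the study's methods describe a construct in KH2 ESCs. All ESCs were grown in serum and LIF with 2i, so cell state and medium change together between ESCs and NPCs. The second ESC CHD4 library is labelled wild-type but carries the words Zfp219 BAC in each of its 29974 peak names, and it is used here under its label. Results that rest on it are also given without it where they change.

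CHD4 is the ATP-dependent remodeler of NuRD, a complex for nucleosome remodeling and histone deacetylation that slides nucleosomes and removes acetyl groups from histones. MBD3 is the methyl-CpG binding domain subunit that joins the remodeling and deacetylase modules of the complex, and CHD4 is also found on chromatin without it. In ESCs, NuRD tunes genes of pluripotency and helps cells to leave self-renewal. SIN3A is the scaffold of another deacetylase complex that shares histone deacetylases with NuRD, and ZFP296 is a zinc finger protein of ESCs.

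The sequences below show the central 200 bp of kept sites on mm9 and were chosen as the highest reported here of their kind with no annotated UTR in the window. Sites were ranked by the lowest of their percentiles of the authors' −log10 value in the 3 CHD4 lists, so that a high rank needs a strong peak in each. The first pair stands for a site far from gene starts and a site with a peak in all 9 lists, and capitals mark every CpG dinucleotide.
Bcar3 intron site, rank 2 (chr3:122138073-122138272, plus strand): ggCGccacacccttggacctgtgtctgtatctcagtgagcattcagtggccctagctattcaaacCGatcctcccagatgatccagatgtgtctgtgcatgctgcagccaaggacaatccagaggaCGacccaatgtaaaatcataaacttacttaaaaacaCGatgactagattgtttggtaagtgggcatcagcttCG
Tead4 site, rank 92 (chr6:128246600-128246799, plus strand): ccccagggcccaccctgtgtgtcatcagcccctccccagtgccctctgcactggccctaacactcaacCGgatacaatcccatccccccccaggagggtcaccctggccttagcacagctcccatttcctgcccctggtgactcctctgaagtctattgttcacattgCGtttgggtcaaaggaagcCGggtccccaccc

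The Bcar3 window held 5 CpG dinucleotides in 200 bp and the Tead4 window 3. The Tead4 window was GC-rich (61.5%) and poor in CpG (observed over expected ratio 0.178, against 0.436 in the Bcar3 window). Over the whole ESC replicate 1 peak this ratio was low at both, 0.184 at Bcar3 and 0.161 at Tead4.

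The next sequences each hold 1 of the motif strings whose frequency differed between kept and ESC-only sites, in capitals. SP/KLF, CREB/ATF, CTCF and AP-1 strings were more frequent in kept sites, and POU octamer, SOX and ESRRB strings were less frequent.
Vti1a and Zdhhc6 promoter site, SP/KLF string (chr19:55390985-55391184, plus strand): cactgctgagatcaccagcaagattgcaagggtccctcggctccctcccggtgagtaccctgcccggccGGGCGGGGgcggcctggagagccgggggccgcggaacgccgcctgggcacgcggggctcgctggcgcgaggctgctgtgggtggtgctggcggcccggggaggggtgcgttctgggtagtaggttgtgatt
Clcn4-2 promoter site, CREB/ATF string (chr7:7252257-7252456, plus strand): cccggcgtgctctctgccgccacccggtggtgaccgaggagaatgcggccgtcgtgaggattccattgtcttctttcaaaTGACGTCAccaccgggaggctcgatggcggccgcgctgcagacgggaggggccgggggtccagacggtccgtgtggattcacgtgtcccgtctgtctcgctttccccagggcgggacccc
Igfbp4 promoter site, CTCF match (chr11:98901663-98901862, plus strand): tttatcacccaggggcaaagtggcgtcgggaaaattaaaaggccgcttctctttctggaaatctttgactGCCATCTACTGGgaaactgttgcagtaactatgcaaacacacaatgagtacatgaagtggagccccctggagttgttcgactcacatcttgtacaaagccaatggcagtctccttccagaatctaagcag
Prpsap1 site, AP-1 string (chr11:116350009-116350208, plus strand): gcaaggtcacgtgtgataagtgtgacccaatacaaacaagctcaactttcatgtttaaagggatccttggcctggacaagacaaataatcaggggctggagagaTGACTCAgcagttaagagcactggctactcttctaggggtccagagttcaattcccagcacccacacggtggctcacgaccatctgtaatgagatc
intergenic site nearest to BC032203, POU octamer (chr17:46994749-46994948, plus strand): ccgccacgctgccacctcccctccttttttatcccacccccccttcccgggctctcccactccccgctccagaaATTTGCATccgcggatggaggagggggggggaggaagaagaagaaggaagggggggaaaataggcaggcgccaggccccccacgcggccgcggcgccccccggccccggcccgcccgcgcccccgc
intergenic site nearest to Tcfap4, SOX string (chr16:4560685-4560884, plus strand): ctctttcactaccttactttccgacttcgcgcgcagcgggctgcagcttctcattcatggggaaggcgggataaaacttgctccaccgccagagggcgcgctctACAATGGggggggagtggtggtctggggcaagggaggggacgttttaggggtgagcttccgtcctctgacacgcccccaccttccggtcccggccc
2700050L05Rik promoter site, ESRRB string (chr7:140828737-140828936, plus strand): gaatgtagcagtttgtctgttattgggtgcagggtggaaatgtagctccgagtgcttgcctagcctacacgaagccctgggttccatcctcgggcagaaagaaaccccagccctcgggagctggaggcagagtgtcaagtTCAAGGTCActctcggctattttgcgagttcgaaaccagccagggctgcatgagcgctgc

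A window of gene starts was set from 1 kb upstream to 5 kb downstream of any transcript start of a protein-coding gene (TSS window). The second of the ranked sites lay in an intron of Bcar3, 15475 bp from the gene start at chr3:122137824-122138522, and had the highest values of any kept site in both ESC CHD4 lists, 141 and 161, with 46.3 in NPCs. Bcar3 encodes an adaptor protein of Src signaling.

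The Igfbp4 promoter site, 795 bp upstream of the gene for an insulin-like growth factor binding protein, had values of 36.3, 76.0 and 64.1. An intergenic site 1732 bp upstream of Taf5, which encodes a TFIID subunit, had 36.1, 74.9 and 41.8. The site shared by the divergent starts of Vti1a and Zdhhc6, a SNARE and a palmitoyltransferase, had 38.7, 52.9 and 39.1. None of these 3 sites had a peak in the other 6 lists.

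Other sites of the highest 10 lay 2917 bp upstream of Ccdc19, in an intron of Dnmbp, at the Rnf216 promoter and at the Srf promoter, with ESC replicate 1 values from 27.0 to 33.6 and NPC values from 29.5 to 56.2. The Srf site lay 119 bp downstream of the start of the gene for serum response factor and carried SIN3A in the list without spike-in (14.4). The Rnf216 site carried SIN3A in both lists (13.2 and 9.79) and GFP-ZFP296 (8.43). Outside TSS windows the last of the highest 5 was an intergenic site 22853 bp from the A730011L01Rik start, with 45.6, 38.8 and 29.5.

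Over all 1080 kept sites, the lowest, median and highest values were 3.08, 9.63 and 141 in ESC replicate 1, 3.43, 14.5 and 161 in ESC replicate 2, and 3.20, 10.9 and 104 in NPCs. ESC-only sites had a median of 8.68 in ESC replicate 1, and NPC-only peaks a median of 8.88 in NPCs, against 10.8 for NPC peaks on kept sites. These values are part of the selection and are given as a description. The share of ESC CHD4 sites that were kept, 13.1% in all, was 10.03% in the lowest of 5 equal classes of ESC replicate 1 values and 16.2% in the highest. Kept sites thus ran from near the bottom to the top of the ESC replicate 1 list.

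**Figure D1:**
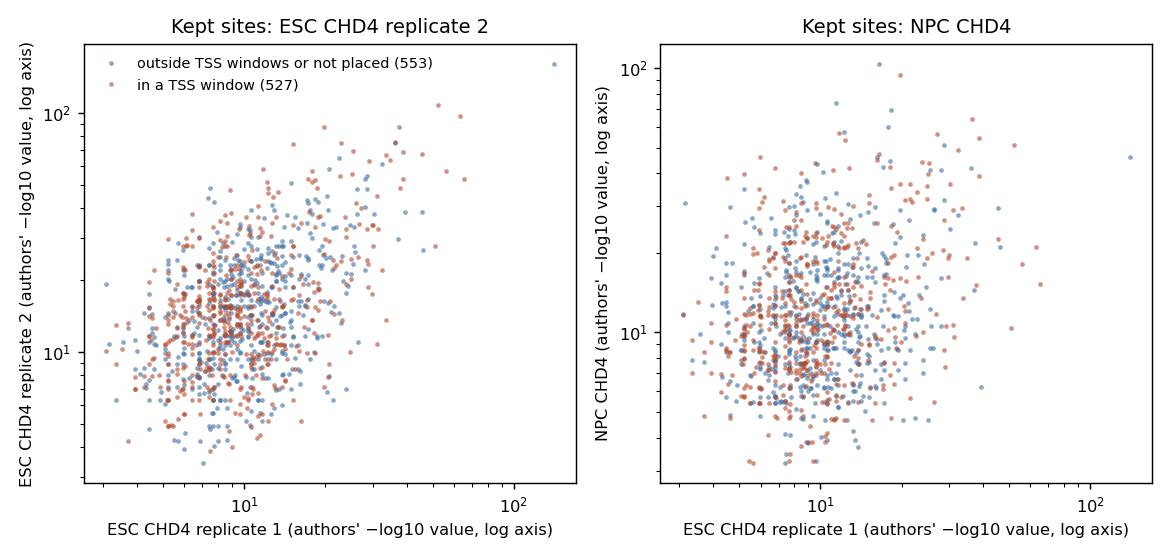
Authors' −log10 value of the 1080 kept sites in ESC CHD4 replicate 1 (x axis) against ESC CHD4 replicate 2 (left) and NPC CHD4 (right), on log axes, 1 point per site, with sites in and outside TSS windows in different colours. Values spread from 3.08 to 141 on the x axis, and the points of both kinds of site overlap over most of that range.

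ESC and NPC peaks of a kept site lay close together. The median distance between the midpoint of the ESC replicate 1 peak and that of its highest NPC peak was 53 bp, with quartiles of 25 and 106 bp, for ESC peaks with a median width of 250.5 bp. An overlap of at least 100 bp was found at 948 kept sites, and 46 overlapped by less than 50 bp. Just inside the rule, sites near Tmc8, D18Ertd653e and Tnrc18 overlapped an NPC peak by 4, 4 and 6 bp, with ESC replicate 1 values of 8.498, 6.08 and 5.11. Just outside it, ESC-only sites near Gm6658, Epha2 and Ccnd1 lay 1, 2 and 3 bp from an NPC peak, with values of 5.93, 5.65 and 5.98. In all, 256 ESC-only sites had an NPC CHD4 peak within 500 bp.

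Kept sites were concentrated at gene starts. A TSS window held 527 of the 1078 kept sites on chromosomes 1 to 19, X and Y (48.9%, 95% exact interval 45.9 to 51.9), against 1578 of 7154 ESC-only sites (22.1%) and 25.6% of all ESC CHD4 sites. The odds ratio was 3.38 (2.96 to 3.86, adjusted p = 1.91e-70, two-sided Fisher's exact test, Benjamini-Hochberg over 8 comparisons). Kept sites comprised a further 387 intergenic, 153 intronic and 11 exonic sites. Against NPC-only peaks the difference was of the same direction: 532 of 1094 NPC peaks on kept sites (48.6%) and 2904 of 17062 NPC-only peaks (17.02%) lay in a TSS window, against 22.5% of all NPC CHD4 peaks (odds ratio 4.61, 4.06 to 5.24, adjusted p = 5.62e-117, Fisher's exact test). All p-values of this kind count sites, of which neighbouring ones share a locus, and each NPC class rests on 1 library, so they do not measure the spread between cultures.

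Within TSS windows, which reach 5 times as far downstream as upstream, 265 kept sites lay upstream and 262 downstream of the start, and 631 and 947 of the 1578 ESC-only sites. The median distance to the nearest protein-coding TSS was 2467 bp for kept sites, 12467 bp for ESC-only sites and 23919 bp for NPC-only peaks. Within 500 bp of a start lay 32.1% of kept, 10.2% of ESC-only and 8.21% of NPC-only sites. At the far end, 23 kept sites (2.13%) were more than 100 kb from a start, against 7.80% of ESC-only and 18.6% of NPC-only sites. Some kept sites outside the windows lay at starts of other transcripts: 67 of 551 (12.2%) were in the same window of a transcript not annotated as a protein-coding gene, against 6.76% of 5576 ESC-only sites outside the windows.

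**Figure D2:**
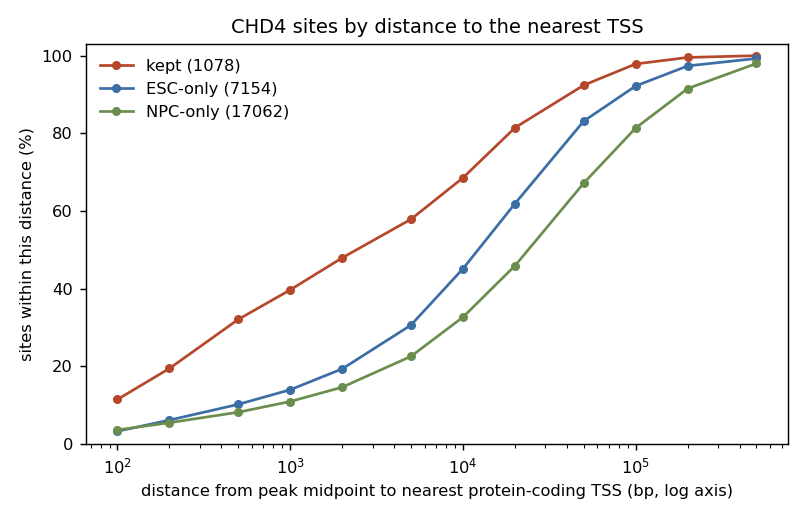
Share of sites (y axis, percent) within a given distance of the nearest protein-coding TSS (x axis, bp, log axis) for 1078 kept sites, 7154 ESC-only sites and 17062 NPC-only peaks. The line of kept sites lies above the other lines, with 32.1% within 500 bp against 10.2% and 8.21%.

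Kept sites were richer in CpG dinucleotides than ESC-only sites and NPC-only peaks, although most of them were not CpG-dense by the limits below. The median GC content was 54.5% for kept and 49.7% for ESC-only sites, over the ESC replicate 1 peak, and 47.9% for NPC-only peaks, over the NPC peak, and the median observed over expected CpG ratio was 0.383, 0.224 and 0.198. A peak was called CpG-dense where GC was at least 50% and this ratio at least 0.6. That held for 350 of 1078 kept sites (32.5%, 29.7 to 35.4) and 644 of 7154 ESC-only sites (9.002%), against 12.1% of all ESC CHD4 sites, an odds ratio of 4.86 (4.16 to 5.67, adjusted p = 1.99e-83, Fisher's exact test). The difference was present in TSS windows (54.3% against 30.5%, odds ratio 2.71, 2.20 to 3.33) and outside them (11.6% against 2.92%, odds ratio 4.36, 3.17 to 5.95).

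ESC MBD3 was less frequent at kept than at ESC-only sites. An ESC MBD3 site, with a peak in both ESC MBD3 lists, lay on 110 of 1080 kept sites (10.2%, 8.45 to 12.1) and on 1182 of 7166 ESC-only sites (16.5%), against 15.7% of all ESC CHD4 sites. The odds ratio was 0.574 (0.463 to 0.707, adjusted p = 3.45e-08, Fisher's exact test). It was below 1 in TSS windows (0.666, 0.461 to 0.945, exact adjusted p = 0.0201) and outside them (0.63, 0.475 to 0.824, exact adjusted p = 0.000707), and in each MBD3 list alone (0.602 in replicate 1 and 0.43 in replicate 2). This result needed ESC CHD4 replicate 1: with the peaks of replicate 2 alone as ESC sites, the odds ratio was 0.882 (0.729 to 1.06, adjusted p = 0.215, Fisher's exact test).

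In NPCs, MBD3 was called on 108 kept sites (10%, 8.28 to 11.9) and on 28 ESC-only sites (0.391%), against 1.65% of all ESC CHD4 sites (odds ratio 28.3, 18.4 to 44.8, adjusted p = 1.91e-70, Fisher's exact test). The odds ratio was 8.73 (5.36 to 14.6) in TSS windows, 157 (49.96 to 794) outside them, where 3 of 5576 ESC-only sites had NPC MBD3, and 15.2 (10.1 to 22.8) as a Mantel-Haenszel value over both. ESC-only sites have no NPC CHD4 peak by the rule, so NPC-only peaks are the nearer comparison. Among NPC peaks, MBD3 lay on 117 of 1096 at kept sites (10.7%) and on 1645 of 17070 NPC-only peaks (9.64%), against 9.76% of all NPC CHD4 peaks. This difference did not pass the test (odds ratio 1.12, 0.911 to 1.37, adjusted p = 0.269, Fisher's exact test). In TSS windows alone it was 12.8% against 8.85% (odds ratio 1.51, 1.12 to 2.02, adjusted p = 0.00722, Fisher's exact test), and outside them 8.72% against 9.80% (odds ratio 0.879, 0.638 to 1.19).

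MBD3 calls of ESCs and NPCs met at 45 kept sites. NPC MBD3 was called at 40.9% of the 110 kept sites with ESC MBD3 and at 6.49% of the other 970. In TSS windows these shares were 65.9% of 44 and 7.45% of 483, and outside the windows 24.2% of 66 and 5.54% of 487. No test was made of these shares, which compare calls that share the NPC CHD4 condition. A majority of kept sites, 907 of 1080, had MBD3 neither in both ESC lists nor in NPCs.

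Ezh2, which encodes the methyltransferase of Polycomb repressive complex 2, had CHD4 and MBD3 peaks at its start in both cell states. Its kept site at chr6:47544224-47544615, 609 bp downstream of the start, had CHD4 values of 37.8, 48.8 and 15.1. MBD3 values were 55.4 and 42.7 in ESCs, the former being the highest of that list at any kept site, and 48.4 in NPCs, and SIN3A values 31.8 and 13.4. Only GFP-ZFP296 had no peak there. E2f2, a cell cycle transcription factor gene, had the same 8 lists at its start, with CHD4 at 12.6, 10.01 and 9.88, MBD3 at 16.2, 19.6 and 19.9 and SIN3A at 14.2 and 5.52.

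SIN3A was more frequent at kept than at ESC-only sites. Both SIN3A lists had a peak at 253 of 1080 kept sites (23.4%, 20.9 to 26.1) and at 812 of 7166 ESC-only sites (11.3%), against 12.9% of all ESC CHD4 sites, an odds ratio of 2.39 (2.03 to 2.81, adjusted p = 2.06e-24, Fisher's exact test). In TSS windows the shares were 36.6% and 22.7% (odds ratio 1.97, 1.58 to 2.45, exact adjusted p = 1.52e-09). Outside TSS windows they were 10.7% and 8.12%, which did not pass (odds ratio 1.36, 1.00 to 1.81, adjusted p = 0.0519, Fisher's exact test).

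GFP-ZFP296 was less frequent at kept sites. It had a peak at 90 of 1080 kept sites (8.33%, 6.76 to 10.1) and at 1178 of 7166 ESC-only sites (16.4%), against 15.4% of all ESC CHD4 sites, an odds ratio of 0.462 (0.365 to 0.58, adjusted p = 4.16e-13, Fisher's exact test). The direction was the same in TSS windows (5.88% against 12.9%, odds ratio 0.423, 0.276 to 0.63) and outside them (10.7% against 17.5%, odds ratio 0.567, 0.421 to 0.751). Without ESC CHD4 replicate 1 the odds ratio was 0.781, with an adjusted p of 0.00298 (Fisher's exact test). Of the 90 kept sites with ZFP296, 40 had an ESC MBD3 site (44.4%), against 70 of the other 990 (7.07%).

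**Figure D3:**
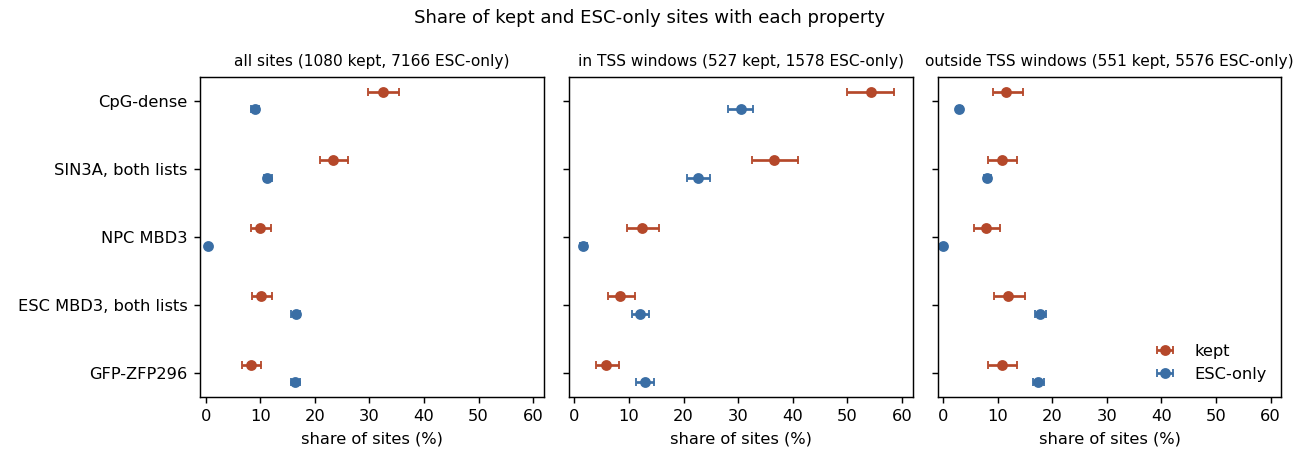
Share of kept and ESC-only sites (x axis, percent, with 95% exact intervals) that were CpG-dense or had a peak of SIN3A, NPC MBD3, ESC MBD3 or GFP-ZFP296 (y axis), for all sites, in TSS windows and outside them. CpG density, SIN3A and NPC MBD3 lie to the right in kept sites in all panels, and ESC MBD3 and GFP-ZFP296 to the left. The SIN3A difference outside TSS windows did not pass. ESC-only sites have no NPC CHD4 peak by the rule, which bears on the NPC MBD3 shares.

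The largest group of kept sites, 553 of 1080 (51.2%), had no peak in any of the other 6 lists, against 47.5% of ESC-only sites. At the other extreme, 4 kept sites had a peak in all 9 lists. The highest lay 4056 bp downstream of a start of Tead4, a Hippo pathway transcription factor gene, with CHD4 at 13.2, 36.9 and 30.1, MBD3 at 20.6, 25.02 and 29.8, SIN3A at 20.2 and 11.6 and ZFP296 at 9.14. Another lay 16015 bp upstream of Nanos3, a germ cell gene, with CHD4 at 12.3, 26.02 and 18.2. A weaker one lay 387 bp downstream of the Kdelc2 start, with CHD4 at 5.65, 6.46 and 8.56.

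Short strings of transcription factor motifs were searched in the central 200 bp of each site, on both strands. Of 19 motifs, 4 were more and 3 less frequent in kept sites at an adjusted p under 0.05 (Fisher's exact test, adjusted over 38 comparisons). The SP/KLF string CCCCGCCC, a GC box of CpG island promoters, was in 113 of 1078 kept sites (10.5%) and 4.79% of ESC-only sites, against 5.54% of all ESC CHD4 sites and 18.2% of all protein-coding gene starts (odds ratio 2.32, 1.84 to 2.92, exact adjusted p = 2.40e-11). In TSS windows the SP/KLF odds ratio was 1.45 (1.08 to 1.93, exact adjusted p = 0.0497), and outside them 1.84 (1.17 to 2.79, exact adjusted p = 0.0319). The site at Vti1a and Zdhhc6 printed above holds it. The CREB/ATF string TGACGTCA was in 7 kept sites (0.649%) and 0.154% of ESC-only sites, against 0.219% of all ESC CHD4 sites and 1.93% of gene starts (odds ratio 4.24, 1.39 to 12.0, exact adjusted p = 0.0162). The CREB/ATF call was lost with CHD4 lists cut to equal length (exact adjusted p = 0.117), without chromosomes 3, 6, 8, 14 and 19 (0.27) and in the central 500 bp (0.16).

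CTCF, the insulator protein that anchors chromatin loops, was represented by a degenerate core. It matched 42 kept sites (3.90%) and 1.75% of ESC-only sites, against 2.03% of all ESC CHD4 sites and 0.331% of gene starts (odds ratio 2.28, 1.56 to 3.28, adjusted p = 0.000102, Fisher's exact test). The difference passed outside TSS windows, at 4.90% against 1.69% (odds ratio 3.004, exact adjusted p = 8.02e-05), while in TSS windows 2.85% against 1.96% did not pass (odds ratio 1.46, exact adjusted p = 0.514). The AP-1 string TGACTCA was in 92 kept sites (8.53%) and 4.18% of ESC-only sites, against 4.75% of all ESC CHD4 sites and 2.64% of gene starts (odds ratio 2.14, 1.66 to 2.74, exact adjusted p = 5.20e-08). Outside TSS windows it was 11.4% against 4.36%, and in TSS windows 5.50% against 3.55%, which did not pass (exact adjusted p = 0.192).

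The strings of 3 ESC transcription factor families were rarer in kept than in ESC-only sites. The ESRRB string TCAAGGTCA, of an orphan nuclear receptor of the pluripotency network, was in 13 kept sites (1.21%) and 243 ESC-only sites (3.40%), against 3.11% of all ESC CHD4 sites and 0.156% of gene starts (odds ratio 0.347, 0.182 to 0.608, adjusted p = 0.00012, Fisher's exact test). The POU octamer ATGCAAAT was in 1.39% of kept and 3.10% of ESC-only sites, against 2.88% of all and 0.948% of gene starts (odds ratio 0.441, exact adjusted p = 0.00366). The SOX string CCATTGT was in 2.69% and 4.43%, against 4.20% of all and 1.89% of gene starts (odds ratio 0.596, exact adjusted p = 0.0178). At least 1 of these 3 strings was in 56 kept sites (5.19%) and 761 ESC-only sites (10.6%). ESRRB passed outside TSS windows (0.907% against 3.64%) and not inside them (1.52% against 2.53%, exact adjusted p = 0.514). The POU octamer and SOX differences did not pass without chromosomes 3, 6, 8, 14 and 19 (exact adjusted p of 0.162 and 0.252), nor inside or outside TSS windows taken alone, and SOX did not pass with CHD4 lists cut to equal length (0.198).

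From the NPC side the AP-1 string set kept sites apart the other way. It was in 143 of 1094 NPC peaks on kept sites (13.1%) and in 8120 of 17062 NPC-only peaks (47.6%), an odds ratio of 0.166 (0.138 to 0.198, adjusted p = 3.39e-122, Fisher's exact test), in TSS windows (6.203% against 29.3%) as outside them (19.6% against 51.3%). CTCF matches were in 61 NPC peaks on kept sites (5.58%) and 0.844% of NPC-only peaks (odds ratio 6.94, 5.02 to 9.49, exact adjusted p = 2.22e-25), and outside TSS windows in 7.30% against 0.784%. The SP/KLF string was in 10.5% against 2.65% (odds ratio 4.32) and the ETS string CCGGAAG, of promoter-binding ETS factors, in 5.94% against 1.98% (odds ratio 3.13, exact adjusted p = 2.66e-12) and in 9.38% of gene starts. In TSS windows alone these odds ratios were lower, 1.84 for SP/KLF and 1.60 for ETS (exact adjusted p = 0.0412), and outside them they were 4.297 and 2.69. The ESRRB string also turned direction: it was in 10 NPC peaks on kept sites (0.914%) and 0.346% of NPC-only peaks (odds ratio 2.66, 1.21 to 5.26, exact adjusted p = 0.0191), and passed in TSS windows (1.32% against 0.207%) but not outside them (0.534% against 0.374%, exact adjusted p = 0.749). The ESRRB call over all NPC peaks was lost without ESC CHD4 replicate 1 (exact adjusted p = 0.15) and without replicate 2 (0.0564). It was also lost with CHD4 lists cut to equal length (0.353) and without chromosomes 3, 6, 8, 14 and 19 (0.163). The SOX string was rarer in kept sites on the NPC side too (2.47% against 4.09%, odds ratio 0.594), but it did not pass inside or outside TSS windows taken alone. The SOX call was also lost with an overlap of at least 50% of the shorter peak (exact adjusted p = 0.0819). It was lost as well with CHD4 lists cut to equal length (0.314) and without chromosomes 3, 6, 8, 14 and 19 (0.133). The POU octamer did not pass on the NPC side (odds ratio 1.09, 0.511 to 2.07, exact adjusted p = 0.87). The TEAD string CATTCCA was rarer in NPC peaks on kept sites (2.93% against 6.22%, exact adjusted p = 1.08e-05), and passed in TSS windows but not outside them. The YY1 string AAGATGGC was more frequent (2.47% against 1.16%) and passed outside TSS windows but not in them. So was the E-box CACGTG (5.39% against 3.26%), which passed neither inside nor outside TSS windows taken alone. The E-box call was lost with CHD4 lists cut to equal length. AP-1 strings were thus rarer at kept sites than in NPC-only peaks, in windows centred on the NPC peak. They were more frequent than in ESC-only sites, in windows centred on the ESC peak, and that difference did not pass in TSS windows alone.

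**Figure D4:**
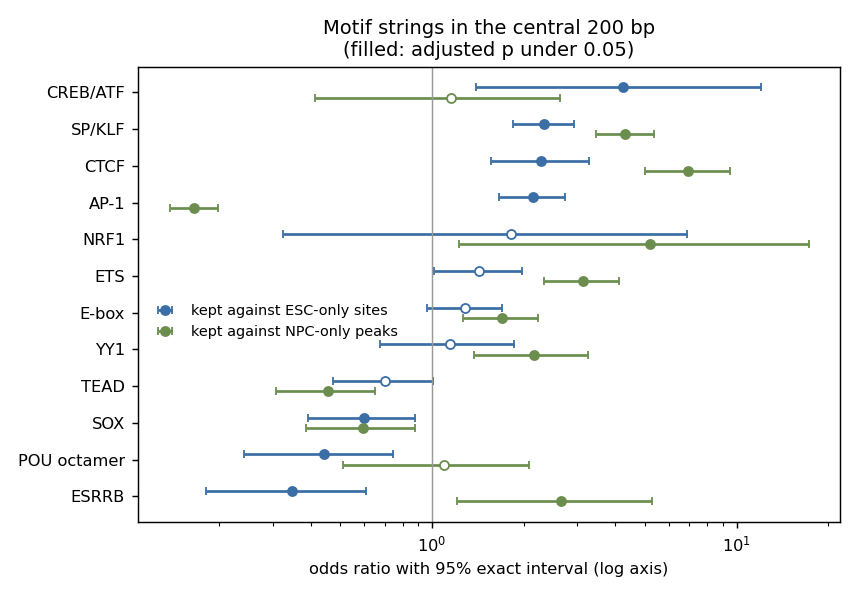
Odds ratio (x axis, log axis, with 95% exact intervals) of each motif called in either comparison (y axis), for kept against ESC-only sites and for NPC peaks on kept sites against NPC-only peaks. Filled points passed an adjusted p of 0.05. The AP-1 points lie on opposite sides of 1, at 2.14 and 0.166, and CTCF and SP/KLF lie above 1 in both.

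Some kept sites held strings of repeats. The B1 string AATCCCAGC was in 68 kept sites (6.31%), 7.94% of ESC-only sites, 1.39% of NPC-only peaks and 0.532% of gene starts. The B2 string GAGATGGCT, of another family of short interspersed repeats, was in 121 kept sites (11.2%), 8.23% of ESC-only sites, 2.44% of NPC-only peaks and 0.259% of gene starts. The AP-1 string at Prpsap1 printed above lies in a variant of the B2 string that contains the AP-1 string, and 13 of the 92 kept sites with the AP-1 string held this variant. Leaving out sites with any of these repeat strings, AP-1 was in 66 of 907 kept sites (7.28%) and 237 of 6152 ESC-only sites (3.85%). Only exact strings were searched and no repeat annotation was used. Diverged repeat copies would thus not be counted, in the sequences printed above as elsewhere. The part of repeats in the peak calls was not tested.

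TSS windows of 542 of 22380 protein-coding genes (2.42%) held a kept site, against 6.03% with an ESC-only site and 11.2% with an NPC-only peak. Of these 542 genes, 102 had an ESC-only site and 117 an NPC-only peak as well. Gene lists are described by counts of genes with a site in a TSS window and were not tested. At the share of all genes, a list as short as these holds few or no genes with a kept site, so a count of 0 is near the background. None of 24 pluripotency genes had a kept site in its window, and 16 had an ESC-only site: Dppa3, Dppa5a, Esrrb, Fgf4, Lin28a, Nanog, Nr5a2, Pou5f1, Prdm14, Sall4, Sox2, Tbx3, Tdgf1, Tet1, Utf1 and Zfp42. One, Klf4, had an NPC-only peak. Outside these windows, 1 kept site had a gene of this list as its nearest: an intergenic site upstream of Sox2.

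Genes of basic cell functions were among the kept ones in small numbers. Kept sites lay in TSS windows of 4 of 78 cytosolic ribosomal protein genes (5.13%), Rpl13, Rpl14, Rps13 and Rps29, and of 4 of 74 respiratory chain genes (5.41%), Atp5f1, Cox5b, Ndufa3 and Ndufs3. Those of Rpl13 and Atp5f1 lay 3796 and 2596 bp downstream of a start, and Rpl13 also had an ESC-only site. The Ndufa3 site, 292 bp upstream of the start of a complex I subunit gene and also in a window of Oscar, ranked 16 with values of 25.3, 69.5 and 43.6. The Rps29 site had CHD4 at 13.3, 12.8 and 13.8, MBD3 in both ESC lists (6.19 and 8.25) and GFP-ZFP296 (19.1). The count was 0 of 46 translation factor, 0 of 54 spliceosome, 0 of 33 proteasome, 0 of 59 histone and 0 of 20 aminoacyl-tRNA synthetase genes, which is near the 2.42% of all genes for lists of these sizes. Hsp90ab1 was the 1 kept gene of 36 chaperone genes, with CHD4 at 8.42, 12.8 and 19.1.

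Of 40 cell cycle regulators, 5 had a kept site (12.5%, against 2.42% of all genes): Ccnb1, Cdk6, Cdkn1a, E2f2 and Mdm4. The other classes were above their shares too, with an ESC-only site at 6 (15%, against 6.03%) and an NPC-only peak at 8 (20%, against 11.2%). Mdm4, an inhibitor of p53, had 2 kept sites, 390 bp upstream and 3696 bp downstream of its start, with CHD4 at 7.70, 14.3 and 22.0 in the former and 8.93, 38.1 and 11.6 in the latter. The Ccnb1 site, of the mitotic cyclin B1, had 8.93, 17.3 and 18.1. Cdkn1a and E2f2 also had ESC-only sites. Of 29 Polycomb genes, 2 had a kept site (6.90%), among them Ezh2. An ESC-only site was found at 11 (37.9%, against 6.03% of all genes), among them Eed, Jarid2, Mtf2 and also Ezh2. An NPC-only peak was found at 9 (31.0%, against 11.2% of all genes), among them Suz12 and also Jarid2.

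Srf was the 1 kept gene of 39 immediate early and AP-1 genes (2.56%), which is near the 2.42% of all genes. Of these 39 genes, 18 (46.2%, against 11.2% of all genes) had an NPC-only peak, among them Fos, Jun and Myc. An ESC-only site was found at 9 (23.1%, against 6.03% of all genes). Of 39 Hox genes, 2 had kept sites (5.13%, against 2.42% of all genes), among them Hoxa4. The Hoxa4 site lay 366 bp upstream of its start, with CHD4 at 12.9, 10.3 and 13.1 and no peak in the other 6 lists. Of 29 neural progenitor genes, Hes1, a Notch target, was the 1 with a kept site (3.45%, near the 2.42% of all genes). The Hes1 site lay 3374 bp downstream of a start, with CHD4 at 8.88, 6.28 and 9.42, MBD3 at 6.06 and 11.9 in ESCs and 6.05 in NPCs. For 27 BMP and TGF-beta response genes, 15 NuRD subunit genes and 15 SIN3 subunit genes the count was 0. That is near the 2.42% of all genes for lists of these sizes.

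**Figure D5:**
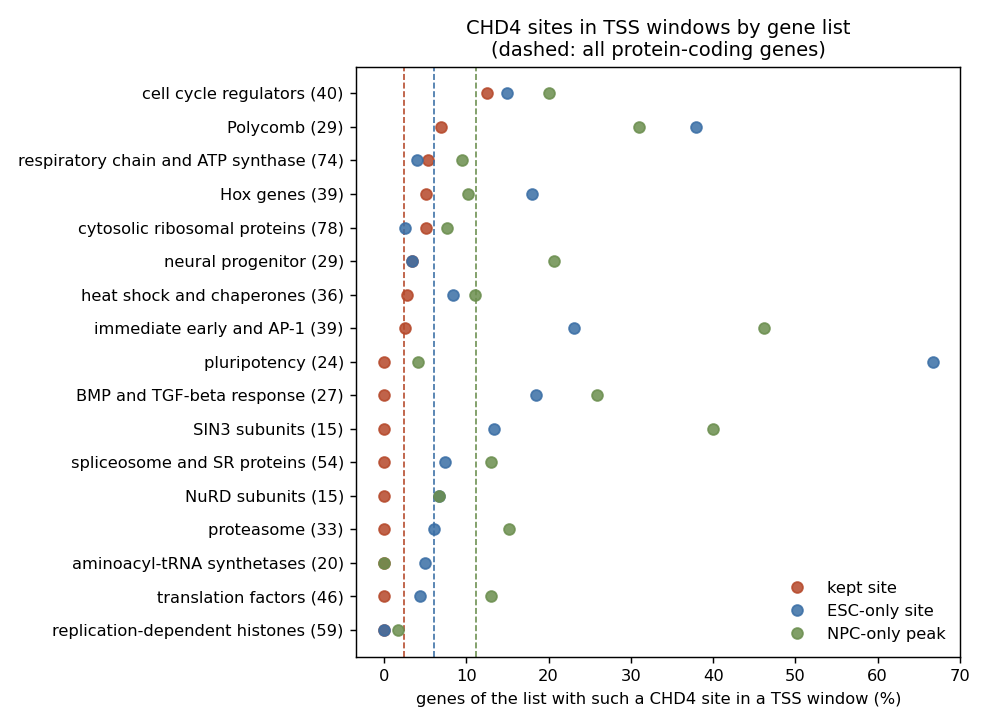
Share of the genes of each list (x axis, percent, list size in brackets on the y axis) with a kept site, an ESC-only site or an NPC-only peak in a TSS window, with dashed lines for all protein-coding genes (2.42%, 6.03% and 11.2%). Pluripotency genes stand at 0 for kept and 66.7% for ESC-only sites. Cell cycle regulators have the highest kept share, 12.5%, beside 15% for ESC-only sites and 20% for NPC-only peaks.

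Kept sites were spread over many genes. Another kept site lay within 10 kb of 184 of them (17.04%). Taking the nearest gene start within 100 kb, 803 genes had 1 kept site, 84 had 2, 21 had 3 and 5 had more. Cxxc5, which encodes a CXXC zinc finger protein, had 5, from 1911 to 58389 bp away, with NPC values from 7.22 to 17.5, and MBD3 at 2 of them in both ESC lists and at 2 in NPCs. Tead4, Cd9, 6430527G18Rik and Gm6772 had 4 each, those of Tead4 all within 6749 bp of a start and with NPC values from 9.73 to 30.1.

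By chromosome, chromosomes 6 and 11 held 113 kept sites each, 10.5% of all. The share of ESC CHD4 sites that were kept ran from 9.13% on chromosome 1 to 27.5% on chromosome 19 (57 of 207), and chromosome X had 1 kept site of 31. Without chromosomes 3, 6, 8, 14 and 19, 745 kept sites were left. Shares of peaks that differ between lists are not limited to these chromosomes: chromosome 17, which was not left out, held 453 ESC CHD4 sites and 724 NPC peaks, of 8246 and 20234. Without the named chromosomes, the odds ratios were 3.39 for TSS windows, 4.90 for CpG density, 2.38 for SIN3A and 0.452 for ZFP296. Without ESC CHD4 replicate 2, the library with the Zfp219 names, 1267 peaks of replicate 1 had an NPC peak, and the odds ratios were 3.20, 4.56, 2.69 and 0.582, with 0.729 for ESC MBD3. The number of chromosome copies in each library was not tested.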

How the data were processed

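Sample titles gave groups and replicate numbers. Reads were mapped by the authors to mm9, and the authors removed duplicates and called peaks with MACS2 for each library on its own against input. Each deposited peak carries the authors' −log10 value; whether of p or q is not stated. It ranks peaks within a list, and no read counts per peak were used, so depth per site is unknown and levels were not compared between lists. Peak names of both SIN3A lists do not mention the normalization to an equal number of reads that the other 7 do, and SIN3A without spike-in has a stricter threshold. The study's own gene lists were not used.

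Overlaps of at least 1 bp, positions (GENCODE vM1, protein-coding genes) and sequences (NCBIM37) were computed with Python 3.11.15, numpy 2.4.6, scipy 1.17.1, statsmodels 0.14.6, pyfaidx 0.9.0.4 and samtools 1.23.1, and checked on simulated data. Coordinates are 1-based, and sequences of chromosome 18 were not printed. Intervals are exact and cover counting error between sites only. Members, gene lists, strings and tests were chosen with earlier results of these data known. The repeat strings and the starts of transcripts of other gene types were added after the data were seen. Named sites are the highest ranked of each kind: 10 in all, 5 outside TSS windows, up to 5 in all 9 lists, up to 4 per gene list, 3 on each side of the overlap limit, 1 per motif that differed, and the 5 genes with most kept sites. A CTCF match is a degenerate core, and REST, RFX and NFI patterns were also searched. Sites on unplaced contigs (2 kept) entered no test of position or sequence. Some sites that this rule names are not reported here.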

Additional observations from a re-analysis of the deposited data

How the results depend on the processing

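Of 262 recomputed values, 231 kept their direction and their side of the threshold or stayed within 1.5 times. The number of kept sites, 1080, was 601 with the 3 CHD4 lists cut to the length of the shortest, and without 1 ESC CHD4 replicate it ran from 1267 to 2962. Without 1 ESC CHD4 replicate, the odds ratio of ESC MBD3 ran from 0.729 to 0.882, the latter without replicate 1 and past the threshold no longer. Without 1 ESC MBD3 list it ran from 0.430 to 0.602. The odds ratio of SIN3A outside TSS windows was 1.36. That of NPC MBD3 against NPC-only peaks, 1.12 in all, was 0.844 with lists cut to equal length, 1.51 in TSS windows and 0.879 outside them. Motifs more frequent in kept sites, 4 against ESC-only and 7 against NPC-only sites, ran for the former from 5 to 7 without 1 ESC CHD4 replicate, and for the latter numbered 4 with lists cut to equal length and 4 without chromosomes 3, 6, 8, 14 and 19. Motifs less frequent in kept than in ESC-only sites, 3, ran from 3 to 6 without 1 replicate, and were 1 without those chromosomes and 5 in the central 500 bp. The NRF1 string was in 4 NPC peaks on kept sites and 12 NPC-only peaks (odds ratio 5.21, 1.22 to 17.2, exact adjusted p = 0.0298). With lists cut to equal length its odds ratio was 0, from 9 matches in all. The NRF1 call was also lost with only peaks of a value of at least 5 (exact adjusted p = 0.172) and without chromosomes 3, 6, 8, 14 and 19 (0.255). Where no construction explains these changes, the cause was not tested. The TSS window, CpG, SIN3A and ZFP296 results kept their direction when pooled over 5 classes of peak height. The Mantel-Haenszel odds ratios were 3.55, 5.41, 2.29 and 0.432, and the classes were not tested one by one. No paired analysis was possible because the lists hold no value for a site without a peak, so no difference can be formed between same-numbered libraries. The rule is met by calls: a site without an NPC peak may fall just under the authors' threshold, the NPC class rests on 1 library, and no control precipitation was used here.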
